A study of Mus musculus with 19 samples.

Results

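Genes of retinoid (vitamin A) storage and metabolism were followed across 19 bulk liver libraries. The 9 genes were taken by name from the 31053 genes of the deposited count table: Lrat, Rbp4, Rdh16, Rdh7, Retsat, Dhrs3, Cyp26a1, Bco1 and Rarb. All 9 were found, each with at least 1 count in all 19 libraries. A further 74 genes of the retinoid pathway and lists of cell type markers were read from the same table.

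The study asked how delivery of miR-34b/c to hepatocytes changes the fibrotic liver. All mice were male C57BL/6 mice, 6 to 8 weeks old at the start. The vehicle group (n = 5) received PBS, and its labels name no vector. The AAV-GFP group (n = 7) received increasing doses of thioacetamide (TAA), a hepatotoxin that causes fibrosis, for 12 weeks, and AAV8 TBG eGFP at week 10. The AAV-miR-34b/c group (n = 7) received the same TAA course and, at week 10, AAV8 vectors for miR-34b and for miR-34c in combination. Both TAA groups were sacrificed 4 weeks after injection. The TBG (thyroxine-binding globulin) promoter restricts expression of the vectors to hepatocytes. TAA and vector came together in the AAV-GFP group, so that their parts in a difference from vehicle cannot be told apart.

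The liver holds most of the body's vitamin A, as retinyl esters in the lipid droplets of hepatic stellate cells, and stellate cells lose these droplets when they turn into matrix-producing myofibroblasts. Hepatocytes take up dietary retinyl esters, hydrolyse them to retinol and release retinol to the blood bound to RBP4. Retinol is oxidised reversibly to retinal and then irreversibly to retinoic acid, which binds the nuclear receptors RAR and RXR and is removed by the CYP26 hydroxylases, whose genes retinoic acid itself induces.

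Of the 9 genes, 2 carry the classic retinoic acid response element, a direct repeat of the receptor half-site with 5 bases between, just before their start of transcription in RefSeq (build GRCm38.p6). They are shown because Cyp26a1 had the widest range between libraries of the 9 genes, while Rarb, with the same kind of element, had few counts in any library. Both stretches run from base -150 to base -11 before the start, 5′ to 3′ on the strand of the gene, with the motif searched in capitals. The capitals leave out the first base of a half-site of the repeat.
Cyp26a1, chr19:37697658-37697797, plus strand: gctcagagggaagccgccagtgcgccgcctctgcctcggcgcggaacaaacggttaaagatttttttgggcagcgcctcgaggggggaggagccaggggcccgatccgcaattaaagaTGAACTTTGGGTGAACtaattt
Rarb, chr14:16575487-16575626, minus strand: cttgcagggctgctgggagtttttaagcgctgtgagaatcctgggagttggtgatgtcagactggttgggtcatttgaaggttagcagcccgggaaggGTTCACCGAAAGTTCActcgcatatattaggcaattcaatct
The motif searched was GTTCANNNNNAGTTCA on both strands, and it was chosen after these sequences had been seen. In Cyp26a1 it lies on the opposite strand, where it reads GTTCACCCAAAGTTCA. Over windows of 250 bases before to 50 bases after the start, 11 of 32851 RefSeq windows held it (0.0335%), and the more general direct repeat 5 was in 32 (0.0974%). None of the 53 other retinoid pathway genes with a window held either. A match describes the sequence and says nothing of the factor bound there.

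The vector cargo miR-34b-5p is shown with its seed (bases 2 to 8) in capitals, as RefSeq lists the mouse miRNA, because 1 of the 9 genes holds its match.
mmu-miR-34b-5p: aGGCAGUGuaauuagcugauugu
Retsat, site in the 3′ UTR: ccaaaagatacCACTGCCgatgaaccaag
The match, CACTGCC on the strand of the transcript, was searched in the longest annotated 3′ UTR of each gene (GENCODE vM21). In Retsat it occupies bases 453 to 459 of a 3′ UTR of 1044 bases. The other 8 members held none, among them Lrat with 4394 bases, and 1529 of 8879 genes tested in all comparisons held at least 1 (17.2%).

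Libraries held 2214073 to 5208405 counts. Levels are given as CPM, the counts of a gene relative to the library total, scaled by the trimmed mean of M values (TMM) over all 19 libraries. Each transcript gives reads near its 3′ end in this assay, so CPM was not divided by length. In 6 pairs, libraries of the same group were much closer to each other than the rest, with a biological coefficient of variation of 0.0812 to 0.171 against 0.215 to 0.480 for the 46 other pairs within groups. These were vehicle 1 and 4, vehicle 3 and 5, AAV-GFP 1 and 2, and AAV-miR-34b/c 1 and 2, 3 and 4, and 5 and 7. They differed by more than counting noise (chi-square per gene of at least 2.90), which repeat libraries of 1 animal can also do, and whether each library came from its own animal cannot be told from these values. The labels name each as a separate biological replicate, so they were kept separate, and each call of the 9 genes is also given with the counts of close pairs summed (leaving 3 samples in vehicle, 6 with AAV-GFP, 4 with AAV-miR-34b/c). AAV-miR-34b/c libraries 1 to 4 stood apart from 5 and 7 in acute phase and clock output genes. Over all genes compared, libraries 3 and 4 were nearer to 5, 6 and 7 (coefficient of variation 0.221 to 0.243) than to 1 and 2 (0.346 to 0.364). The mean log2 CPM of 22 acute phase genes was 10.8 to 11.5 in libraries 1 to 4, 10.5 in library 6, and 9.46 and 9.53 in libraries 5 and 7. In the other groups it was 8.57 to 9.93 (vehicle) and 7.83 to 9.60 (AAV-GFP). The mean of 10 clock output genes was 2.07 to 2.87 in AAV-miR-34b/c libraries 1 to 4 and 6, and 4.5 and 4.56 in libraries 5 and 7. It was 4.04 to 4.96 in vehicle, and 2.39 in AAV-GFP 4 against 3.11 to 4.29 in the other AAV-GFP libraries.

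All 20 hepatic stellate cell markers had a count in each group, and their summed level was 543 to 762 CPM in vehicle, 558 to 662 CPM in AAV-GFP and 462 to 721 CPM in AAV-miR-34b/c, with overlapping ranges. Dcn alone had means of 368, 316 and 259 CPM in these groups. Against vehicle, 3 of 17 tested fell in AAV-GFP by edgeR, beside 12.7% of all genes called in either direction. In AAV-miR-34b/c 3 of 16 fell and 1 rose, beside 21.9%. With close pairs summed the calls numbered 1 and 0, beside 2.26% and 3.12% of all genes. Gfap and Des, markers often used for these cells, were at or near 0, with 0 to 3 counts for Gfap and 0 to 11 counts for Des in a library. The 15 markers of activated stellate cells summed to 66.7 to 134 CPM in vehicle, 136 to 295 CPM in AAV-GFP and 68.2 to 113 CPM in AAV-miR-34b/c, so that every AAV-GFP library lay above every library of the other groups on this summed scale. Their mean log2 CPM overlapped between vehicle (1.59 to 2.42) and AAV-GFP (2.23 to 3.36), and was 1.66 to 2.21 in AAV-miR-34b/c. The 12 hepatocyte markers had a mean log2 CPM of 10.8 to 11.2 over all libraries. The 10 pericentral hepatocyte markers had a mean log2 CPM of 6.82 to 7.04 in vehicle, 5.98 to 6.77 in AAV-GFP and 6.21 to 6.57 in AAV-miR-34b/c, and against vehicle 4 of 10 tested fell in AAV-GFP and 4 of 9 in AAV-miR-34b/c by edgeR, beside 5.19% and 9.75% of all genes. With close pairs summed, 3 and 1 were called in either direction, beside 2.26% and 3.12% of all genes. The 6 cholangiocyte markers summed to 18.7 to 41.1 CPM in vehicle, 53.4 to 96.8 CPM in AAV-GFP and 49.2 to 118 CPM in AAV-miR-34b/c. Their mean log2 CPM was 1.09 to 1.55 in vehicle, 2.13 to 3.16 in AAV-GFP and 1.56 to 2.27 in AAV-miR-34b/c. Sox9 had a higher mean in AAV-miR-34b/c (48.5 CPM) than in AAV-GFP (34.2 CPM), and each of the other cholangiocyte markers a lower one. The 11 macrophage markers summed to 474 to 861 CPM in vehicle, 386 to 630 CPM in AAV-GFP and 564 to 855 CPM in AAV-miR-34b/c. The part of these lists in the results below was not tested. In whole liver, fewer cells of a type and less RNA per cell cannot be told apart.

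Of the 9 genes, 8 passed the filter on low counts in each comparison, and Rarb did not. With edgeR's quasi-likelihood test and Benjamini-Hochberg adjustment over all genes tested, 2 of the 8 rose in AAV-GFP against vehicle (Dhrs3 and Cyp26a1), beside 12.7% of all 9522 genes (7.54% higher and 5.19% lower). In AAV-miR-34b/c against AAV-GFP 1 of 8 fell (Retsat), beside 3.36% of 9252 genes (1.95% higher and 1.42% lower). In AAV-miR-34b/c against vehicle, 2 rose (Cyp26a1 and Dhrs3) and 1 fell (Rdh7), beside 21.9% of 9290 genes (12.2% higher and 9.75% lower). With so few members these shares describe the list, and nothing is read from their distance to the background. The background itself rests on single libraries: the 1212 calls in AAV-GFP against vehicle became 728 without vehicle 1, 689 without vehicle 4, 806 without AAV-GFP 3 and 1859 without AAV-GFP 6, and the 2037 calls in AAV-miR-34b/c against vehicle became 1328 without vehicle 1 and 1267 without vehicle 4. The median log2 fold change of the 8 genes was 0.26, -0.27 and -0.06 in the 3 comparisons, beside -0.01, -0.01 and 0.02 over all genes tested. With close pairs summed, the calls by edgeR numbered 1, 0 and 0, beside 2.26%, 0.832% and 3.12% of all genes, and 2, 3 and 3 members had an unadjusted p under 0.05. The labels call the samples biological replicates, and p-values measure the spread between these libraries only, which is partly technical if close pairs share an animal.

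**Figure D1:**
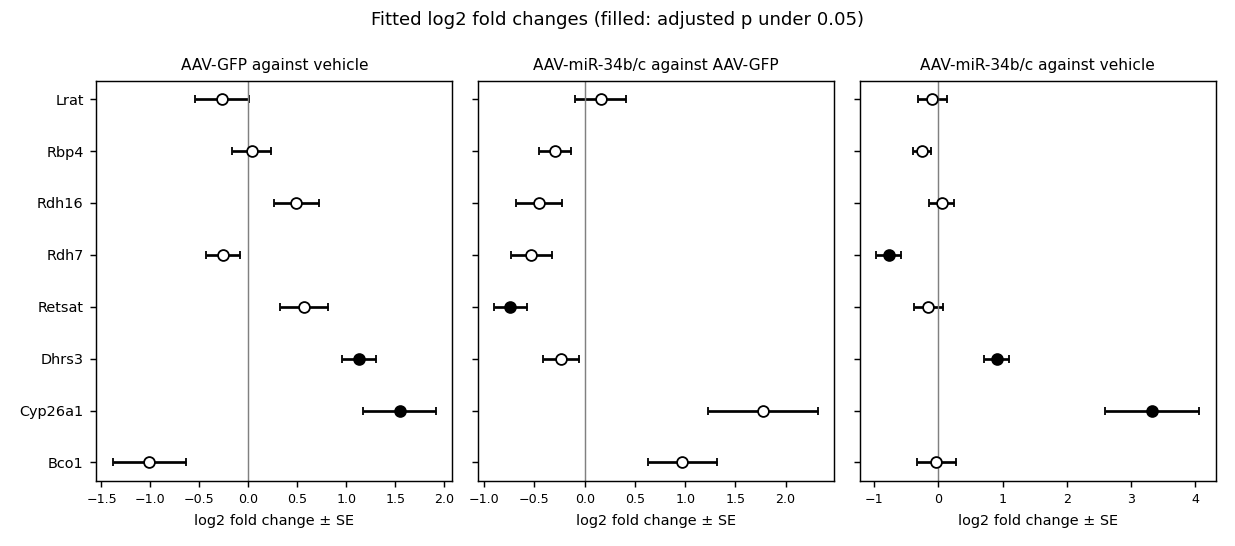
Fitted log2 fold changes (x axis) of the 8 genes tested, with bars of 1 standard error, in the 3 comparisons. Filled points passed an adjusted p of 0.05: Dhrs3 and Cyp26a1 in AAV-GFP against vehicle, Retsat in AAV-miR-34b/c against AAV-GFP, and Rdh7, Dhrs3 and Cyp26a1 in AAV-miR-34b/c against vehicle.

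Lrat (lecithin retinol acyltransferase, chr3:82892579-82903973, minus strand, ENSMUSG00000028003) esterifies retinol for storage and in the liver is a gene of stellate cells. Its levels in vehicle libraries 1 to 5 were 20.2, 12.5, 10.7, 16.4 and 13.7 CPM. In AAV-GFP the lowest was 4.31, the median 12.6 and the highest 17.9 CPM, and in AAV-miR-34b/c they were 9.98, 13.8 and 18.7 CPM. The groups overlapped almost fully, and the 1 low value was AAV-GFP library 3, with 11 counts. The log2 fold change was -0.27 ± 0.28 (SE, adjusted p = 0.543) in AAV-GFP against vehicle, 0.16 ± 0.25 (adjusted p = 0.839) in AAV-miR-34b/c against AAV-GFP and -0.10 ± 0.23 (adjusted p = 0.795) in AAV-miR-34b/c against vehicle, by edgeR. Set against the mean of the 20 stellate markers in the same library, Lrat had a log2 ratio of 0.33 ± 0.40 (SD, n = 5) in vehicle, -0.01 ± 0.68 (n = 7) in AAV-GFP and 0.32 ± 0.35 (n = 7) in AAV-miR-34b/c. No difference between groups passed (exact two-sided permutation tests, adjusted over 9 ratio tests: p = 0.446 for AAV-GFP and 0.943 for the AAV-miR-34b/c group against vehicle, 0.419 between the vector groups). While Lrat showed no call, Col1a1, the collagen gene of activated stellate cells, rose from 2.82 to 6.11 CPM in vehicle to 14.0 to 55.7 CPM in AAV-GFP (log2 fold change 2.42, adjusted p = 0.000298 by edgeR, and 2.38, adjusted p = 0.00898, with close pairs summed). It fell in AAV-miR-34b/c against AAV-GFP, to 5.43 to 8.75 CPM (log2 fold change -1.92, adjusted p = 0.000898, and -1.87, adjusted p = 0.0331, with close pairs summed). Of the activated stellate markers, 5 of 11 tested rose in AAV-GFP against vehicle, beside 7.54% of all genes. With close pairs summed, 1 marker was called, beside 2.26% of all genes in either direction. Between the vector groups 3 of 7 tested fell, beside 1.42% of all genes. With close pairs summed 3 were called, beside 0.832% of all genes in either direction.

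Rbp4 (chr19:38116629-38125281, minus strand, ENSMUSG00000024990), the plasma carrier that exports retinol from hepatocytes, was the most abundant of the 9. It stood at 2184, 2138, 3090, 2161 and 2905 CPM in vehicle libraries 1 to 5. AAV-GFP ranged from 1801 to 3390 CPM with a median of 2313, and AAV-miR-34b/c from 1950 to 2274 CPM with a median of 2082. The AAV-miR-34b/c libraries were the tightest, with a coefficient of variation of 5.91% against 25.5% in AAV-GFP and 18.5% in vehicle, and lay inside the range of AAV-GFP. The log2 fold changes were 0.03 ± 0.20 (adjusted p = 0.934), -0.30 ± 0.16 (adjusted p = 0.392) and -0.25 ± 0.14 (adjusted p = 0.211) by edgeR, given first for AAV-GFP against vehicle, then for AAV-miR-34b/c against AAV-GFP and last for AAV-miR-34b/c against vehicle. Ttr (transthyretin) forms the circulating complex with RBP4. It had 8015 to 8407 CPM in vehicle, 8509 to 13342 CPM in AAV-GFP and 9029 to 11959 CPM in AAV-miR-34b/c, with every library of both TAA groups above every vehicle library. Its fold changes did not pass the test (adjusted p = 0.170 for AAV-GFP and 0.136 for the AAV-miR-34b/c group against vehicle, edgeR).

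The Rbp4 to Ttr ratio within a library was lower in both TAA groups than in vehicle. Its log2 value was -1.73 ± 0.26 (SD, n = 5) in vehicle, -2.06 ± 0.15 (n = 7) in AAV-GFP and -2.26 ± 0.19 (n = 7) in AAV-miR-34b/c. The difference was -0.33 for AAV-GFP against vehicle (exact permutation test, adjusted p = 0.0398), while the AAV-miR-34b/c libraries differed from vehicle by -0.53 (exact permutation test, adjusted p = 0.0114, raw p = 0.00126, the smallest this design can give). Between the vector groups it was -0.20 (exact permutation test, adjusted p = 0.0860). Vehicle libraries 3 and 5, a close pair, had the highest ratios (-1.41 and -1.48). The call for AAV-GFP was lost without any 1 of 8 of the 12 libraries (vehicle 3 or 5, or AAV-GFP 1 to 6), where the difference was -0.34 to -0.25 (exact permutation tests, adjusted p of 0.0584 to 0.0860). Without AAV-GFP 2 or AAV-miR-34b/c 5 the difference between the vector groups passed (-0.23 in both cases, exact permutation tests, adjusted p = 0.0451). After summing close pairs the difference from vehicle was -0.27 for AAV-GFP and -0.48 for the AAV-miR-34b/c group against vehicle, where neither passed (exact permutation tests, adjusted p = 0.154). Without AAV-miR-34b/c libraries 1 to 4 the latter was -0.39 (exact permutation test, adjusted p = 0.161). With fewer samples, the smallest p possible in these 2 settings is larger than in the main analysis, so that not passing says little about the difference.

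**Figure D2:**
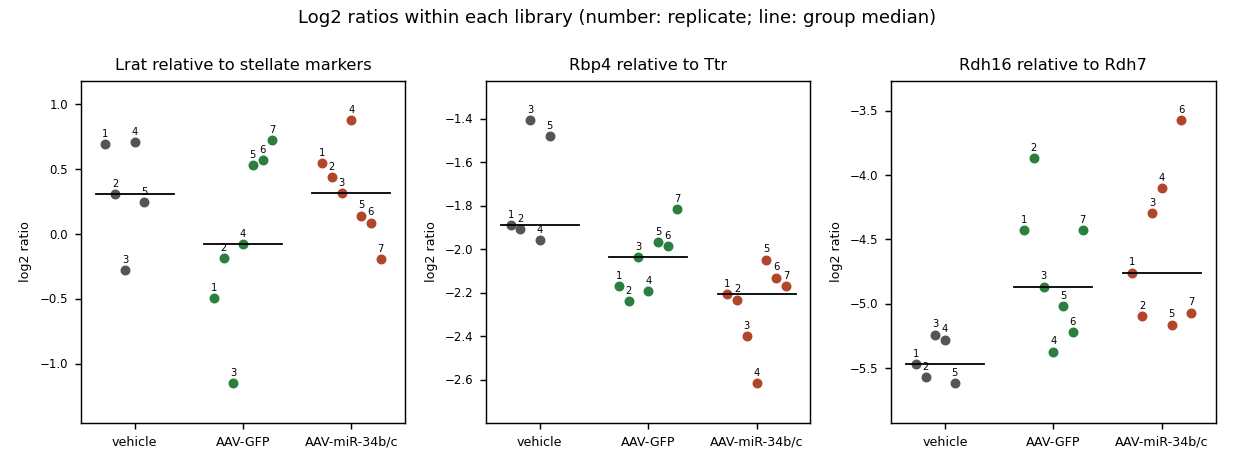
Log2 ratios (y axis) within each library of Lrat to the mean of 20 stellate markers, Rbp4 to Ttr and Rdh16 to Rdh7. Points are libraries with their replicate number and lines are group medians: Rbp4 to Ttr ran from -1.96 to -1.41 in vehicle and from -2.62 to -2.05 in AAV-miR-34b/c.

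The retinol dehydrogenases Rdh16 and Rdh7 are hepatocyte enzymes that oxidise retinol to retinal and also act on steroids. Both lie in a cluster of similar genes on chromosome 10 (Rdh16 at chr10:127801152-127846565, plus strand, ENSMUSG00000069456; Rdh7 at chr10:127884028-127888817, minus strand, ENSMUSG00000040134), and Rdh16 overlaps the pseudogene Rdh18-ps on its own strand, so that reads could be shared between near copies, which was not measured, and their counts are taken as uncertain. Rdh7 stood at 1121, 1138, 981, 1162 and 1157 CPM in vehicle libraries 1 to 5. In AAV-GFP it ranged from 726 to 1283 CPM with a median of 812, and the group was split. AAV-GFP libraries 1 to 4 (812, 732, 726 and 774 CPM) lay below every vehicle library. AAV-GFP libraries 5 to 7 stood at 1066, 1283 and 1130 CPM, near the vehicle level. In AAV-miR-34b/c it ranged from 361 to 911 CPM with a median of 628. All 7 AAV-miR-34b/c libraries lay below all vehicle libraries, and library 6 was the lowest. Against vehicle Rdh7 fell in AAV-miR-34b/c, at a log2 fold change of -0.77 ± 0.20 (1.71-fold, adjusted p = 0.0119 by edgeR). This call was lost with close pairs summed (-0.87, adjusted p = 0.0974) and with the clock output genes as a covariate (-0.80, adjusted p = 0.0666). Against AAV-GFP it was -0.53 ± 0.20 (adjusted p = 0.188), and passed by limma-voom (-0.57, adjusted p = 0.0315) and when scaled by library size only (-0.73, adjusted p = 0.0222). For AAV-GFP against vehicle it was -0.26 ± 0.17 (adjusted p = 0.337). Leaving out AAV-miR-34b/c libraries 1 to 4, the 4 highest in acute phase genes, gave -1.03 against vehicle (adjusted p = 0.00133 by edgeR). Libraries 1 and 2 held the highest Rdh7 of the group (888 and 911 CPM), so their omission lowers its level by construction. Calls over all genes were 3073 of 9537 in this setting, against 2037 of 9290 in the main fit. The mean log2 CPM of the pericentral hepatocyte markers was also lower in every AAV-miR-34b/c library than in every vehicle library (6.21 to 6.57 against 6.82 to 7.04), and its part in the Rdh7 values was not tested.

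Rdh16 was much less abundant, at 24.7, 23.4, 25.3, 29.3 and 22.9 CPM in vehicle libraries 1 to 5. AAV-GFP ranged from 18.1 to 51.9 CPM with a median of 33.8, and AAV-miR-34b/c from 16.9 to 32.2 CPM with a median of 28.8. Of the 7 AAV-GFP libraries, 5 were above every vehicle library and 1 was below. The log2 fold changes were 0.49 ± 0.23 (adjusted p = 0.158), -0.45 ± 0.23 (adjusted p = 0.353) and 0.05 ± 0.19 (adjusted p = 0.871) by edgeR, in the same order of comparisons as for Rbp4. The log2 ratio of Rdh16 to Rdh7 was -5.44 ± 0.17 (SD, n = 5) in vehicle, -4.74 ± 0.53 (n = 7) in AAV-GFP and -4.58 ± 0.60 (n = 7) in AAV-miR-34b/c. It rose by 0.69 in AAV-GFP and by 0.86 in AAV-miR-34b/c against vehicle (exact permutation tests, adjusted p = 0.0398 for both), and differed by 0.16 between the vector groups (exact permutation test, adjusted p = 0.671). Summing close pairs gave differences from vehicle of 0.62 and 1.002, which did not pass (exact permutation tests, adjusted p = 0.154), and without AAV-miR-34b/c libraries 1 to 4 the second was 0.83 (exact permutation test, adjusted p = 0.0536). Both settings leave fewer samples, so the smallest p that these tests can give is larger than in the main analysis, and not passing says little. Without any 1 of 6 libraries (vehicle 1, 2 or 5, AAV-GFP 1, 3 or 7) the difference for AAV-GFP was 0.64 to 0.71 and did not pass either.

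Retsat (retinol saturase, chr6:72598475-72608425, plus strand, ENSMUSG00000056666) reduces retinol to dihydroretinol and is a hepatocyte gene. In vehicle libraries 1 to 5 it stood at 145, 245, 350, 133 and 356 CPM, with libraries 1 and 4 low and libraries 3 and 5 high. AAV-GFP ranged from 214 to 489 CPM with a median of 350, and AAV-miR-34b/c from 189 to 276 CPM with a median of 221. All AAV-GFP libraries but library 4 were above every AAV-miR-34b/c library. Against AAV-GFP, Retsat fell in AAV-miR-34b/c, at a log2 fold change of -0.74 ± 0.16 (1.67-fold, adjusted p = 0.0126 by edgeR), and this call held without any 1 of the 14 libraries. It was lost with close pairs summed (log2 fold change -0.71, adjusted p = 0.196), with the acute phase genes as a covariate (-0.32, adjusted p = 0.689, where 18 of 9252 genes passed), with the clock output genes as a covariate (-0.66, adjusted p = 0.0557) and without AAV-miR-34b/c libraries 1 to 4 (-0.59, adjusted p = 0.171). Against vehicle the log2 fold change was 0.57 ± 0.25 (adjusted p = 0.129) for AAV-GFP and -0.16 ± 0.22 (adjusted p = 0.646) for AAV-miR-34b/c. Vehicle libraries 1 and 4, the low ones, were those with the highest acute phase level of their group (9.92 and 9.93). The part of that program in the Retsat values was not tested. The acute phase level ran from 7.83 to 9.60 in AAV-GFP and from 9.46 to 11.5 in AAV-miR-34b/c, so that the covariate could hardly be separated from the group.

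Dhrs3 (chr4:144892827-144928209, plus strand, ENSMUSG00000066026) reduces retinal back to retinol and is itself induced by retinoic acid. It stood at 41.9, 52.0, 59.1, 47.4 and 55.1 CPM in vehicle libraries 1 to 5. AAV-GFP ranged from 78.7 to 130 CPM with a median of 119, and AAV-miR-34b/c from 67.7 to 143 CPM with a median of 77.5. All 14 libraries of the TAA groups lay above all vehicle libraries. Within AAV-miR-34b/c, libraries 3, 4 and 6 were high (115, 121 and 143 CPM), and the other 4 lay between 67.7 and 77.5 CPM.

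Dhrs3 rose in AAV-GFP against vehicle, with a log2 fold change of 1.13 ± 0.17 (2.19-fold, adjusted p = 0.000351 by edgeR). It rose under each alternative tried for this comparison, with log2 fold changes of 0.95 to 1.20. After summing close pairs it was 1.12 (adjusted p = 0.0122). Dhrs3 rose in AAV-miR-34b/c against vehicle by 0.91 ± 0.20 (1.87-fold, adjusted p = 0.00558). Summing close pairs gave 0.97 (adjusted p = 0.0676), with the clock output genes as a covariate 0.62 (adjusted p = 0.101), and without AAV-miR-34b/c libraries 1 to 4 it was 0.92 (adjusted p = 0.00509). Between the vector groups the log2 fold change was -0.24 ± 0.18 (adjusted p = 0.619 by edgeR).

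Cyp26a1 (chr19:37697798-37701536, plus strand, ENSMUSG00000024987), whose promoter element is printed above, clears retinoic acid in the liver and is a direct target of the retinoic acid receptors. It was low in vehicle, at 5.49, 6.58, 0.889, 2.93 and 4.02 CPM in libraries 1 to 5, from 2 to 20 counts. AAV-GFP ranged from 6.13 to 17.3 CPM with a median of 12.9, and 5 of 7 libraries were above every vehicle library. In AAV-miR-34b/c libraries 1 to 4 it stood at 43.1, 46.2, 91.1 and 86.8 CPM, and in libraries 5 to 7 at 8.11, 5.86 and 6.2 CPM. The group was split, with 4 libraries above all AAV-GFP libraries and the other 3 at the level of the lowest AAV-GFP and the highest vehicle libraries. Libraries 1 and 2, and 3 and 4, are close pairs, so the 4 high values come from 2 pairs.

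Cyp26a1 rose in AAV-GFP against vehicle, with a log2 fold change of 1.54 ± 0.37 (2.91-fold, adjusted p = 0.0118 by edgeR). This was lost with close pairs summed (1.44, adjusted p = 0.0749) and with all groups in 1 fit (1.54, adjusted p = 0.123). The AAV-miR-34b/c libraries were higher than vehicle by 3.33 ± 0.73 (10.1-fold, adjusted p = 0.00540). Summing close pairs gave 3.12 (adjusted p = 0.0676) and limma-voom 2.89 (adjusted p = 0.0582). With the clock output genes as a covariate it was 1.77 (adjusted p = 0.20), and with the acute phase genes as a covariate 1.36 (adjusted p = 0.253). Without libraries 1 to 4 the log2 fold change was 0.73 (adjusted p = 0.233 by edgeR). In AAV-miR-34b/c against AAV-GFP it was 1.78 ± 0.54 (adjusted p = 0.0833), and the test passed without AAV-miR-34b/c library 5, 6 or 7 (1.96, 1.98 and 1.97, adjusted p of 0.0459, 0.0327 and 0.0384), with no filter on low counts (1.79, adjusted p = 0.0485) and with all groups in 1 fit (1.79, adjusted p = 0.0409). Its sign turned without libraries 1 to 4 (-0.83, adjusted p = 0.233) and with the acute phase genes as a covariate (-0.62, adjusted p = 0.867).

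The 4 high libraries were those with the highest acute phase level, which library 6 approached. They were also the 4 with the highest level of 7 neutrophil genes, summed to 400 to 1911 CPM in libraries 1 to 4, 62.7 to 146 CPM in libraries 5 to 7 and 14.7 to 79.95 CPM in the other groups. Clock output was low in libraries 1 to 4 and also in library 6, where Cyp26a1 was at 5.86 CPM. The 4 libraries left out above are those high in Cyp26a1, so their omission lowers its fold by construction. The part of the neutrophil genes in the Cyp26a1 values was not tested.

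Cyp26b1, the related hydroxylase that the liver expresses mostly outside hepatocytes, split the AAV-miR-34b/c group along other lines. It stood at 18.0, 22.1, 147, 128, 67.7, 18.0 and 61.6 CPM in libraries 1 to 7, against a median of 15.7 CPM in AAV-GFP (3.84 to 39.7) and 3.62 CPM in vehicle (0.977 to 24.4). Libraries 3 and 4 were the highest for both hydroxylases, but libraries 5 and 7 were high for Cyp26b1 only, and libraries 1 and 2 for Cyp26a1 only. Cyp26b1 rose in AAV-miR-34b/c against AAV-GFP (log2 fold change 1.92 ± 0.51, adjusted p = 0.0432 by edgeR) and against vehicle (3.02 ± 0.71, adjusted p = 0.00753). After summing close pairs neither passed (1.83 and 2.58, adjusted p of 0.203 and 0.101).

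**Figure D3:**
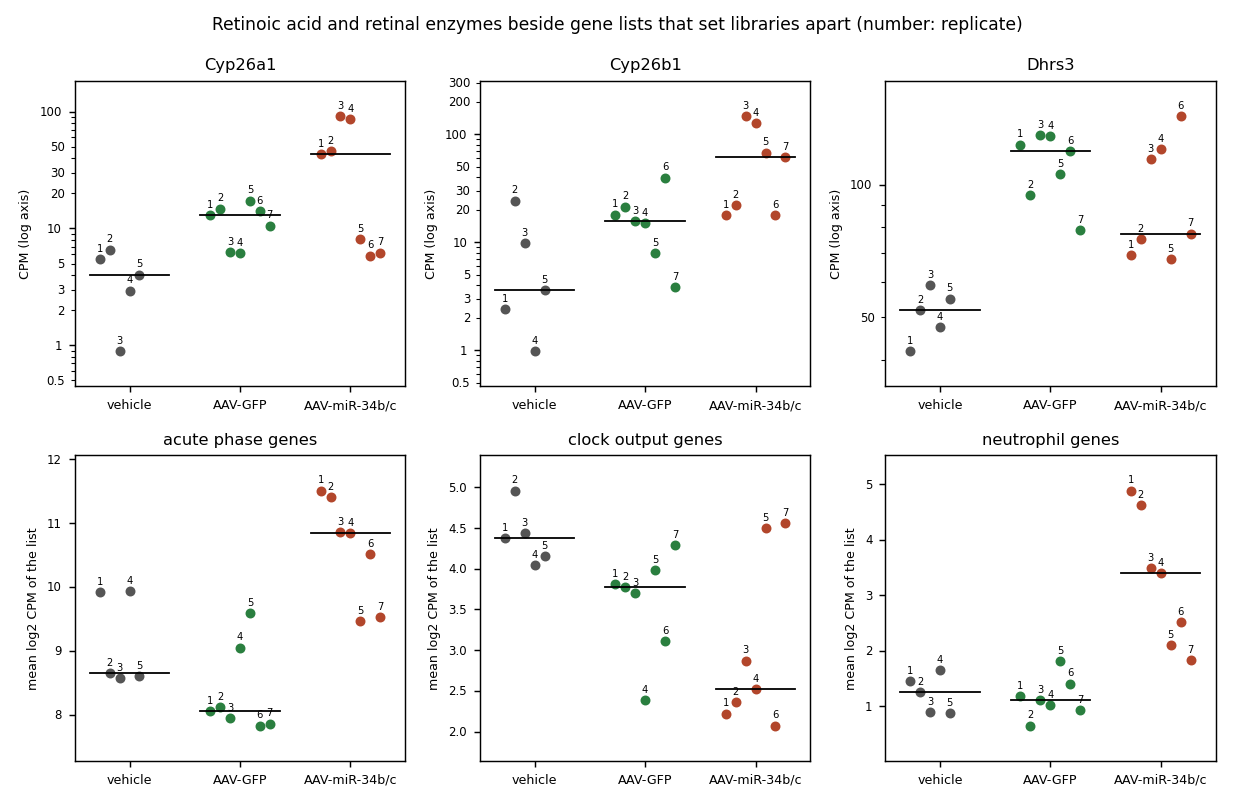
Top, CPM (log axis) of Cyp26a1, Cyp26b1 and Dhrs3 in each library, and bottom, mean log2 CPM of the acute phase, clock output and neutrophil lists. Points are libraries with their replicate number and lines are group medians: AAV-miR-34b/c libraries 1 to 4 are highest in Cyp26a1 (43.1 to 91.1 CPM), in acute phase and in neutrophil genes.

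Bco1 (chr8:117095854-117133720, plus strand, ENSMUSG00000031845), which cleaves beta-carotene into retinal, was sparse, with 7 to 31 counts in a library. Vehicle libraries 1 to 5 had 8.24, 4.61, 12.4, 6.84 and 7.24 CPM. AAV-GFP ranged from 2.14 to 7.04 CPM with a median of 2.28, where 4 libraries lay below every vehicle library. AAV-miR-34b/c ranged from 5.02 to 12.2 CPM with a median of 6.70, inside the range of vehicle. The log2 fold changes were -1.01 ± 0.37 (adjusted p = 0.0784), 0.97 ± 0.34 (adjusted p = 0.145) and -0.03 ± 0.31 (adjusted p = 0.956) by edgeR, in the same order of comparisons, and the first passed without AAV-GFP library 7 (-1.22, adjusted p = 0.0292) and by limma-voom (-1.17, adjusted p = 0.0163).

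Rarb (chr14:16430839-16819156, minus strand, ENSMUSG00000017491), the retinoic acid receptor beta gene and a target of retinoic acid through the element printed above, had 127 counts over the 19 libraries. Vehicle libraries 1 to 5 had 2.75, 2.63, 2.22, 1.22 and 1.61 CPM. AAV-GFP ranged from 0.784 to 4.23 CPM with a median of 1.62, and AAV-miR-34b/c from 0.209 to 3.39 CPM with a median of 2.47. The groups overlapped, and the libraries highest in Cyp26a1, AAV-miR-34b/c 3 and 4, had 12 and 1 counts of Rarb. Exact two-sided permutation tests of log2 CPM gave p of 0.934, 0.630 and 0.652 in the 3 comparisons. At 1 to 13 counts a library, only a large difference could have been detected. Rarb overlaps Top2b, on the opposite strand, with 4562 counts, and whether strand was used in the counting was not given in the sources used here.

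**Figure D4:**
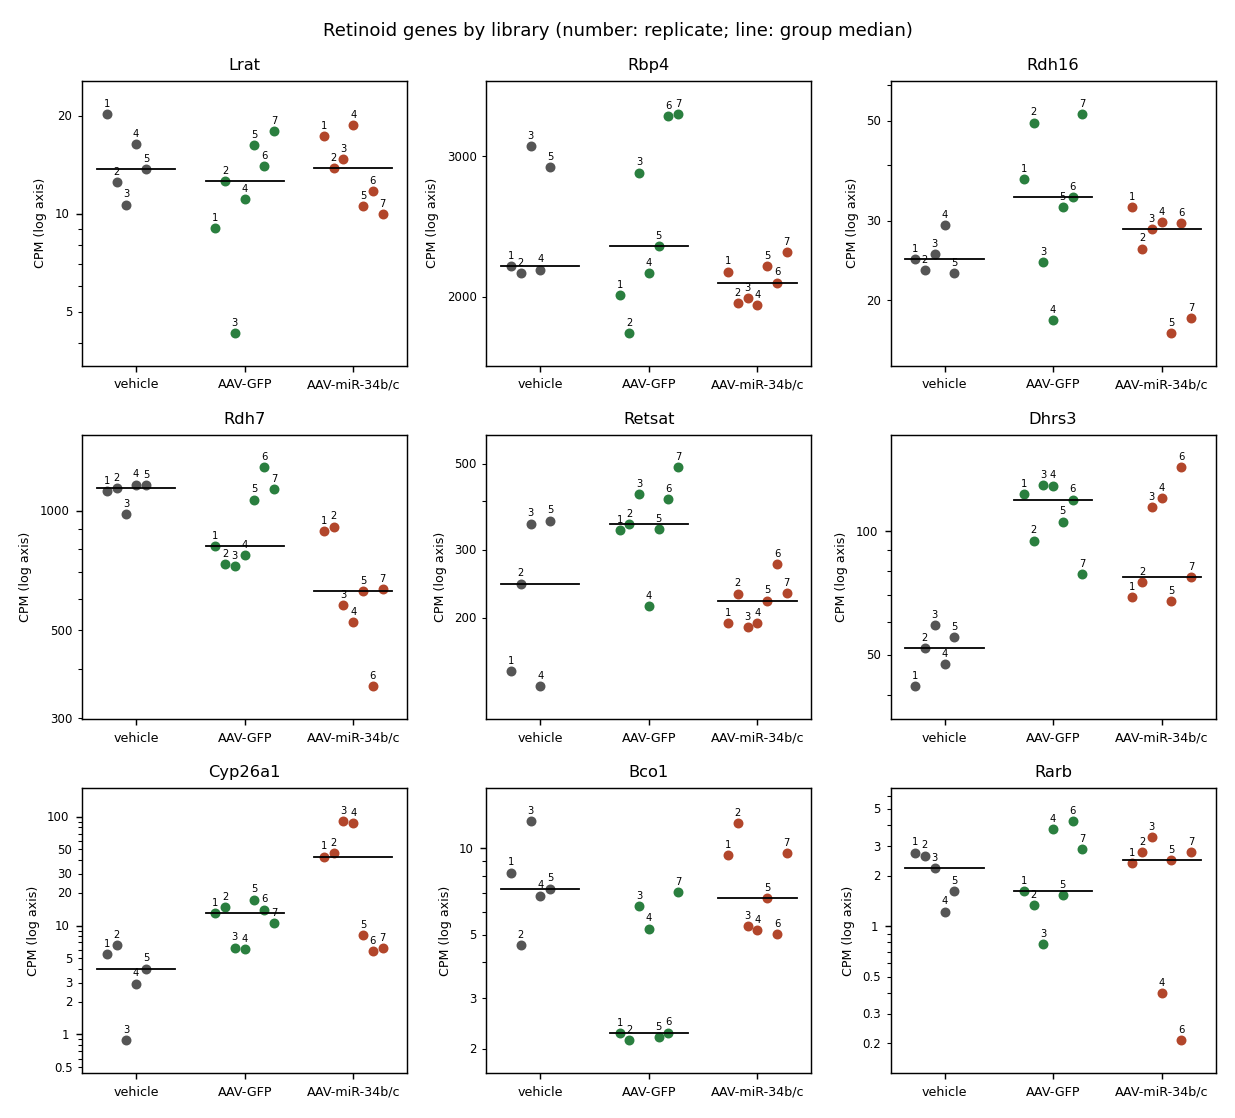
CPM (log axes, scaled separately) of the 9 genes in each library, with points numbered by replicate and lines at group medians. Dhrs3 separates both TAA groups from vehicle (67.7 CPM or more against 59.1 or less), Cyp26a1 splits AAV-miR-34b/c, and Lrat overlaps between all groups (4.31 to 20.2 CPM).

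Of the 74 other retinoid pathway genes, 47 were tested in AAV-GFP against vehicle, and 8 rose and 4 fell (25.5%, beside 12.7% of all genes tested). Among the hydrolases of retinyl esters and other lipids, 3 of 10 rose: Lpl (lipoprotein lipase, log2 fold change 1.43 ± 0.29, adjusted p = 0.00420 by edgeR), Lipa (lysosomal acid lipase, 0.67) and Ces1g (0.66). Among retinol and retinal dehydrogenases or reductases, 2 of 12 rose and 2 fell. Dhrs9, which oxidises retinol, rose by 3.35 ± 0.55 (adjusted p = 0.000712), from 0 to 4 counts in vehicle to 8 to 45 counts in AAV-GFP, and Adh4 by 0.87 ± 0.20 (adjusted p = 0.00895). Rdh16f2 and Rdh13 fell by 0.85 and 1.31 on the log2 scale, with all AAV-GFP libraries below all vehicle libraries for both. Cd36, a fatty acid transporter on the carotenoid uptake list, rose by 1.60 ± 0.18 (adjusted p = 1.73e-05), from 14.4 to 21.3 CPM in vehicle to 39.6 to 62.7 CPM in AAV-GFP. Fabp5, which carries retinoic acid to PPAR-delta, fell by 2.03 ± 0.29 (adjusted p = 0.000198). It stood at 156, 35.5, 76.5, 163 and 69.6 CPM in vehicle libraries 1 to 5, highest in the close pair 1 and 4. In AAV-GFP it ranged from 14.5 to 33.0 CPM.

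Of receptors and response genes in the same comparison, Rarg rose by 1.32 (adjusted p = 0.0195 by edgeR) and Tgm2, the transglutaminase that retinoic acid induces, by 1.21 (adjusted p = 0.0144), while Rarres1, a retinoic acid responder gene, fell by 1.61 (adjusted p = 0.000961). Of the 6 genes tested on the list of retinoic acid response genes, these 2, Tgm2 and Rarres1, passed, in opposite directions. Rara (0.77, adjusted p = 0.0811), Rxra (0.09, adjusted p = 0.804) and Aldh1a1, which makes retinoic acid (0.51, adjusted p = 0.0621), did not pass. Summing close pairs left 6 calls (Lpl, Rdh16f2, Dhrs9, Cd36, Fabp5 and Rarres1). The median log2 fold change of the 47 genes was 0.23, beside -0.01 over all genes tested.

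In AAV-miR-34b/c against AAV-GFP, 47 pathway genes were tested and 4 passed (8.51%, beside 3.36% of all genes tested), with a median log2 fold change of -0.05 beside -0.01 over all genes. Fabp5 rose by 1.63 ± 0.21 (adjusted p = 0.000193 by edgeR), from 14.5 to 33.0 CPM in AAV-GFP to 50.1 to 137 CPM in AAV-miR-34b/c, and Cyp26b1 rose as given above. Lpl fell by 0.97 ± 0.24 (adjusted p = 0.0301), with all AAV-miR-34b/c libraries below all AAV-GFP libraries, and the carboxylesterase gene Ces1f fell by 0.80 ± 0.20 (adjusted p = 0.0381). After summing close pairs 1 gene of the list, Fabp5, passed (1.77, adjusted p = 0.00452). The count fell to 2 without AAV-GFP library 1, 5 or 7 or AAV-miR-34b/c library 6, and to 1 without AAV-miR-34b/c library 3 or 4. Calls over all genes fell as well, from 311 to 209, 247, 295, 265, 215 and 216 in these settings, in the order given. Ttr (-0.07, adjusted p = 0.878), Aldh1a1 (-0.12, adjusted p = 0.819), Rara (-0.18, adjusted p = 0.818) and Rxra (0.31, adjusted p = 0.619) did not pass.

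In AAV-miR-34b/c against vehicle, 46 pathway genes were tested, and 7 rose and 4 fell (23.9%, a share near the 21.9% of all genes tested), with a median log2 fold change of 0.20 beside 0.02 over all genes. Tgm2 rose by 2.17 ± 0.28 (adjusted p = 0.000145 by edgeR), from 28.3 to 48.9 CPM in vehicle to 101 to 305 CPM in AAV-miR-34b/c. Stra6l, the liver receptor that takes up RBP4-bound retinol, rose by 0.88 ± 0.18 (adjusted p = 0.00377), from 59.2 to 79.6 CPM to 101 to 175 CPM. Its highest libraries were 3, 4 and 6 (169, 175 and 167 CPM), as for Dhrs3. Cyp26b1, Aldh1a7 (0.68), Adh4 (0.92), Cd36 (0.94) and Rarg (1.20) also rose. Cd36 stood at 32.7 to 49.2 CPM in AAV-miR-34b/c libraries 1 to 4. In libraries 5 to 7 it was 15.8 to 20.5 CPM, inside the vehicle range (14.4 to 21.3 CPM). Adh4 stood at 81.2 to 131 CPM in libraries 1 to 4 and 54.1 to 64.5 CPM in libraries 5 to 7, against at most 59.9 CPM in vehicle. Rarg was higher in libraries 5 to 7 (9.52 to 11.1 CPM) than in libraries 1 to 4 (4.73 to 8.75 CPM). Rarres1 fell by 1.44 (adjusted p = 0.00138), Ces1f by 0.69, Rdh13 by 0.86 and Lipc (hepatic lipase) by 0.39. After summing close pairs, Tgm2 (2.27, adjusted p = 0.0124) and Rarres1 (-1.44, adjusted p = 0.0411) passed. Aldh1a1 (0.40, adjusted p = 0.0751), Rara (0.60, adjusted p = 0.170) and Rxra (0.41, adjusted p = 0.212) did not pass. This comparison shares its vehicle libraries with AAV-GFP against vehicle.

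The genes most like each member were taken by Pearson correlation of log2 CPM over the 19 libraries, among 9005 other genes tested in all comparisons. These are descriptions, since the libraries share groups and close pairs. For Lrat they were Rab32 and Cd53 (0.83 for both), which are not among the stellate markers. For Rbp4 they were Tsc22d1 (0.92) and Acadsb (0.88), for Rdh7 Ugt2b34 and Nit2 (0.96 for both), and for Rdh16 Glt28d2 (0.74) and Nsfl1c (0.73). For Retsat they were Cyp4a10 (0.83) and Sord (0.82), for Dhrs3 Sqstm1 and Palld (0.92 for both), for Cyp26a1 Wfdc2 (0.86) and Gas6 (0.85), and for Bco1 Cyp17a1 and Chchd7 (0.80 for both). Among the 9 members themselves the highest coefficient was 0.63, between Rbp4 and Retsat, and the lowest was -0.57, between Rdh7 and Dhrs3. Dhrs3 and Cyp26a1, both called in the same comparisons against vehicle, had a coefficient of 0.41.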

How the data were processed

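Total RNA (100 ng per the labels, where the study's methods give another amount) from whole liver of mice (5 samples of vehicle, 7 with AAV-GFP and 7 with AAV-miR-34b/c, each labelled a biological replicate, though 6 close pairs may share an animal) was made into QuantSeq 3′ mRNA libraries and sequenced single-end for 100 bp. The submitters' processing notes name STAR and the build mm10, and the study's methods name a filtering, trimming, alignment and counting pipeline. The version of STAR, the counter and its use of strand were not given in the sources used here. The authors deposited raw counts per Ensembl gene, with no normalization, in 1 table of 31053 genes, of which 30934 matched a symbol and 13985 had no count. Column names are the sample titles.

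Groups were taken from the titles. Counts were tested between 2 groups at a time with edgeR 4.0.16 (R 4.3.3): filterByExpr (minimum count 10, minimum total 15), TMM, quasi-likelihood fit, Benjamini-Hochberg adjustment over all genes and a threshold of 0.05. SE is the absolute log2 fold change over the square root of F. Ratios used log2 CPM with a prior count of 2 and exact two-sided permutation tests, adjusted over 9 tests. The fit was also run on simulated data, but the outcome is not reported here and nothing is drawn from it. Alternatives were other filters, scalings, DESeq2 1.42.0, limma 3.58.1 (voom with sample quality weights), a common fit, a replicate block, left-out libraries, summed close pairs (coefficient of variation under 0.2) and covariates. The acute phase covariate and the omission of 4 libraries were chosen after seeing the data.

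The members, the pathway and marker lists and the tests were chosen with earlier results of these data known. Named were all members, other pathway genes called in a comparison (at most 12 by adjusted p), Ttr, Aldh1a1, Rara and Rxra, and the 2 most correlated genes of each member. One further gene under this rule is not reported here. Cyp26b1 and the stellate markers Col1a1, Gfap and Des were also described after their values were seen. Gene coordinates are from GENCODE vM21 (GRCm38) and promoters and the miRNA from RefSeq (GRCm38.p6), the same build as mm10. All 9 members had a promoter window and a 3′ UTR.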

Additional observations from a re-analysis of the deposited data

Results flagged for a closer look

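Rdh7 in vehicle replicate 3 was flagged, at a log2 CPM of 9.939 against 10.13 or more in the other 4 (981 against at least 1121 CPM). The group was tight, with a coefficient of variation of 6.76%, so the flag marks a small difference. This Rdh7 value was the 1 flagged among 36 groups of values examined (12 quantities in 3 groups), where chance flags about 1 in 20 groups. All AAV-miR-34b/c libraries were below it, and without it Rdh7 still fell in AAV-miR-34b/c against vehicle.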

How the results depend on the processing

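Over all refits of the 8 tested members, 553 kept their direction and side of the threshold or were never called, 12 gained a call, 15 lost one and none turned a called direction. Main counts of members called were 2 (AAV-GFP against vehicle), 1 (AAV-miR-34b/c against AAV-GFP) and 3 (AAV-miR-34b/c against vehicle), and of pathway genes 12, 4 and 11. Summing close pairs gave 1, 0 and 0 members and 6, 1 and 2 pathway genes. In the first comparison, members numbered 1 with at least 10 counts required in every library, where Cyp26a1 was not tested, and 1 with all groups in 1 fit. Pathway genes numbered 21 by limma-voom and 7 with the clock covariate, where calls over all genes were 2687 and 210 of 9522 (1212 in the main analysis). In the second, 2 members passed with no filter, library size only, limma-voom or all groups in 1 fit, and 8 pathway genes with library size only or limma-voom (624 and 813 of 9252 genes, against 311). With edgeR, 0 members passed with the acute phase covariate, without AAV-miR-34b/c libraries 1 to 4 or with the clock covariate (1, 4 and 3 at an unadjusted p under 0.05), beside 1 and 2 pathway genes in the first 2 of these settings. Calls over all genes were then 18 of 9252, 127 of 9994 and 219 of 9252. In the third, pathway genes numbered 18 by DESeq2 and 19 by limma-voom (2447 of 11215 and 3839 of 9290 genes, against 2037), and the clock covariate left 0 members (2 at an unadjusted p under 0.05) and 6 pathway genes (1030 of 9290 genes). The causes were not tested.

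Leaving out each library gave 2 to 3, 1 to 2 and 3 members, and 10 to 17, 1 to 6 and 8 to 13 pathway genes. Differences in log2 ratio then ran from -0.387 to -0.2492 (Rbp4 to Ttr, AAV-GFP against vehicle), -0.2341 to -0.1392 (the same, between vector groups) and 0.5464 to 0.7971 (Rdh16 to Rdh7, AAV-GFP against vehicle). For AAV-GFP and then AAV-miR-34b/c against vehicle, summing close pairs gave -0.2733 and -0.4771 (Rbp4 to Ttr) and 0.6212 and 1.002 (Rdh16 to Rdh7). Without AAV-miR-34b/c libraries 1 to 4 the latter group differed by -0.387 and 0.8333.

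Replicate numbers did not pair the libraries: deviations of same-numbered libraries correlated over 0.1 in 2 of 5, 2 of 7 and 1 of 5 pairs. A replicate block gave 5, 1 and 3 members (Rdh7, Retsat and Bco1 were added in AAV-GFP against vehicle, with adjusted p of 0.0289, 0.0239 and 0.0202) and 19, 1 and 9 pathway genes, and ratio differences from vehicle of -0.3925 and -0.5712 (Rbp4 to Ttr) and 0.725 and 0.7523 (Rdh16 to Rdh7). Calls over all genes went from 1212, 311 and 2037 to 3136, 142 and 945. Scaling by library size only shifted the median of all genes by -0.19 between the vector groups and by -0.14 when AAV-miR-34b/c was set against vehicle, and the share of calls that were higher went from 57.9% to 19.1% and from 55.5% to 31.1%. The counts of Rarb and Bco1 limit what could be detected for them.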
